A study of Mus musculus with 13 samples.

Results

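The 37 measured genes of mitochondrial and peroxisomal fatty acid oxidation are described here in the sciatic nerve of db/db mice and their db/+ controls. The genes were taken by symbol from a list of 39, which was drawn up with earlier results of these data known. Each had 1 probe set among the 15437 tested. Hadhb, which encodes a subunit of the mitochondrial trifunctional protein, and Scp2, which encodes a peroxisomal thiolase and sterol carrier, were not analysed here. By the textbook location of their proteins, 21 of the 37 genes were counted as mitochondrial, 9 as peroxisomal, 3 as found in both organelles (Crat, Eci2 and Mlycd) and 4 as acting elsewhere (Slc22a5, Acot1, Ppara and Ppard).

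Gene expression was compared between db/db mice (6 arrays, samples 110, 111, 112, 409, 410 and 411) and db/+ mice (7 arrays, samples 101, 103, 104, 105, 106, 404 and 407). All were of the BKS strain and aged 24 weeks, and the labels give no other allele or treatment. The db allele is a mutation of the leptin receptor gene Lepr that all cells of the animal carry; db/db mice are homozygous for it and become obese and diabetic, and db/+ mice are heterozygous. Effects of the mutation within the nerve and effects of the animal's metabolic state therefore cannot be told apart in this design. Each label numbers a mouse sample without stating that it came from a separate animal, so a p-value here speaks only of the variation among these samples. Precision is set by the number of arrays. All values are log2 expression levels, and a difference is db/db minus db/+ on that scale.

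Fatty acids enter mitochondria as carnitine esters and are shortened there by repeated dehydrogenation, hydration, oxidation and thiolysis, with electrons passed to the respiratory chain through the electron transfer flavoprotein. Peroxisomes run a parallel pathway with their own oxidases, bifunctional enzymes and thiolases, and take the very long and branched chains that mitochondria handle poorly. Many of these genes are known targets of the PPAR nuclear receptors. In peripheral nerve, Schwann cells and the fat cells of the surrounding epineurium both use fatty acids, and the loss of peroxisomal or mitochondrial fatty acid handling causes neuropathy in several inherited diseases.

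Arrays within a genotype were not alike. The array medians lay between 8.63 and 8.71, any 2 arrays correlated across genes with coefficients of 0.894 to 0.989, and 0 pairs were identical. Lepr lay between 5.85 and 6.56 on the db/db arrays and between 6.78 and 8.98 on the db/+ arrays, a difference of -1.42 ± 0.32 (SE; limma with Benjamini-Hochberg adjustment, adjusted p = 0.00659), or -2.19 (adjusted p = 0.000699) against db/+ 105, 404 and 407 alone. The mean of 12 neuronal markers was 6.88 to 7.58 on the db/db arrays, and 8.77, 8.06 and 7.62 on db/+ 105, 404 and 407, but 12.51, 12.22, 11.80 and 11.99 on db/+ 101, 103, 104 and 106. The counts of genes are therefore given over all 13 arrays and again over 9, with db/+ 105, 404 and 407 as the only db/+ arrays. The 3′ minus 5′ level of the actin control probe sets, which grows as RNA is broken down, was 0.49 to 0.92 on the db/db arrays and 0.96 to 1.40 on the db/+ arrays other than db/+ 407, at 0.40. In a whole nerve, more cells of a type and more RNA per cell cannot be told apart. The mean of the 7 measured myelinating Schwann cell markers was 9.28 to 10.60 on the db/db arrays and 10.12 to 11.28 on the db/+ arrays.

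In db/db nerve, 16 of the 37 fatty acid oxidation genes were higher than in db/+ nerve and 0 were lower, with 21 not past the threshold (limma, Benjamini-Hochberg adjusted p under 0.05). Among all 15437 genes, 13.4% were higher and 11.7% were lower by the same rule. The higher genes included members of the carnitine shuttle, the acyl-CoA dehydrogenases, the electron transfer chain of these enzymes, the later steps of the mitochondrial spiral and the peroxisomal pathway. The median difference of the 37 genes was 0.32, against 0.02 for all genes, and 32 of the 37 differences were positive, against 52% of all genes. Over the 9 arrays, 6 of the 37 were higher and 0 were lower, where 6.12% of all genes were higher and 6.78% lower. Those 6 were Hsd17b4, Etfdh, Abcd2, Slc25a20, Acadm and Pdk4, and all 6 were also among the 16. The other 10 had positive differences over the 9 arrays and did not pass. The actin 3′ minus 5′ level was lower on every db/db array than on 6 of the 7 db/+ arrays, and its part in these differences was not tested.

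**Figure D1:**
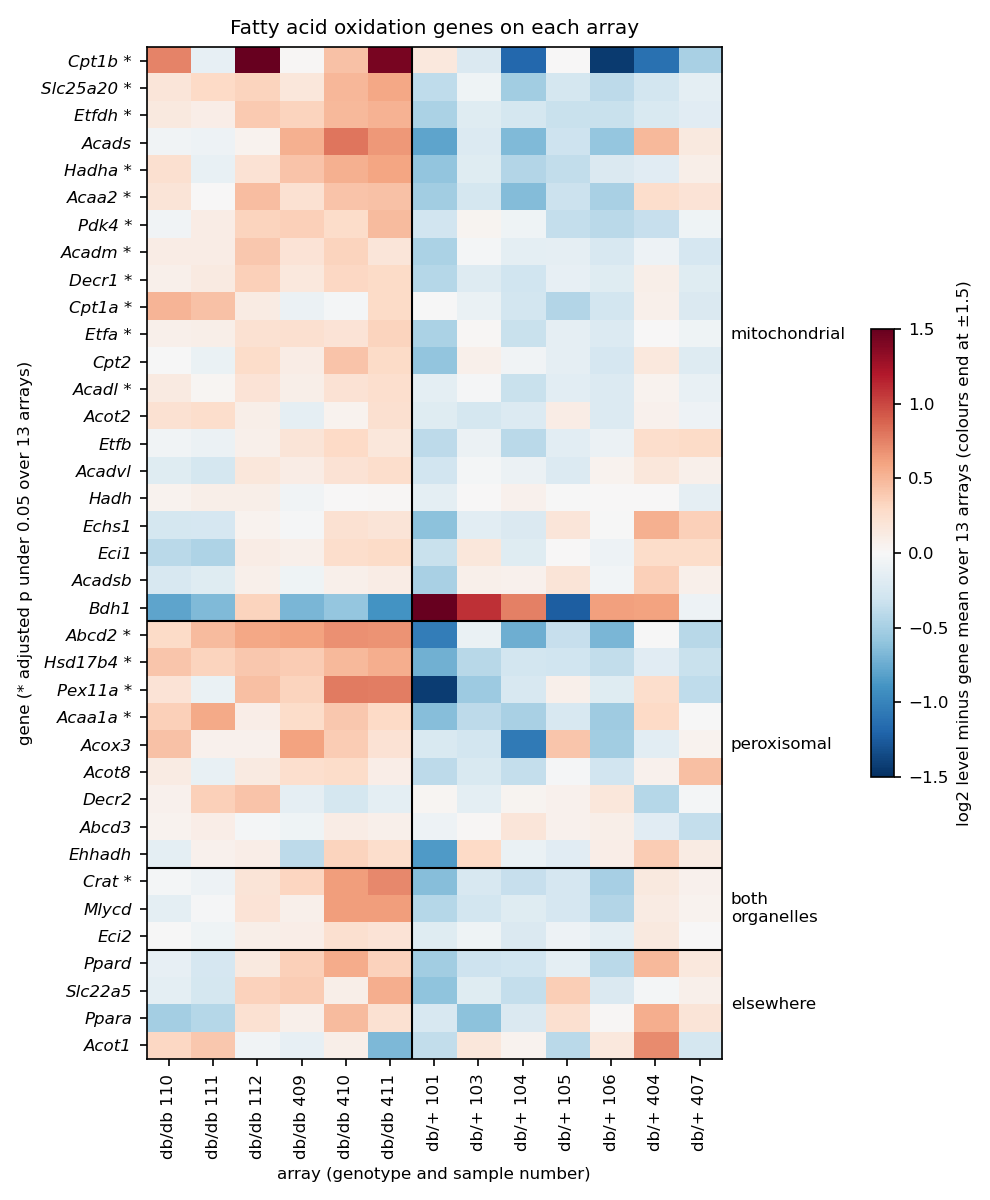
Level of each of the 37 genes (rows, grouped by organelle) on each array (columns, 6 db/db arrays left and 7 db/+ arrays right), as the log2 level minus the gene's mean over the 13 arrays; colours end at 1.5 in both directions and an asterisk marks an adjusted p under 0.05 (limma). The 16 marked genes are redder on the db/db side, db/+ 101 holds the lowest db/+ level of 21 genes, and Bdh1 runs the other way.

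The carnitine shuttle carries long-chain fatty acids across the mitochondrial membranes. Slc25a20, the carnitine-acylcarnitine carrier of the inner membrane, had levels of 11.56 to 11.96 (median 11.70) on the db/db arrays and 10.87 to 11.32 (median 11.11) on the db/+ arrays. The groups did not overlap, and its difference of 0.64 ± 0.10 (SE) was a 1.55-fold higher level in db/db nerve (adjusted p = 0.000619). Against db/+ 105, 404 and 407, at 11.12, 11.11 and 11.24, the difference was 0.57 (adjusted p = 0.0132). Cpt1a and Cpt1b encode the liver and muscle forms of carnitine palmitoyltransferase 1, the rate-limiting entry step. Cpt1b had levels of 7.23 to 9.10 (median 7.94) on the db/db arrays and 5.92 to 7.51 (median 6.86) on the db/+ arrays. Its difference of 1.32 ± 0.36 (SE) was the greatest of the 37 in size and among the least precise (95% interval 0.55 to 2.09, adjusted p = 0.0176). The groups overlapped, with 4 of 6 db/db arrays above all db/+ arrays, and the db/db arrays differed widely among themselves.

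The highest Cpt1b levels, 9.10 and 8.77, were on db/db 112 and 411. The same arrays had the highest means of the 12 skeletal muscle markers among db/db arrays, 10.84 and 11.40, where the other 4 db/db arrays lay between 6.51 and 7.72. On the db/+ arrays the muscle mean was highest on db/+ 101, at 12.14, where Cpt1b was 7.51, the highest db/+ level. Other arrays did not follow this order, since Cpt1b was 7.35 on db/+ 105 and 6.86 on db/+ 407, whose muscle means were 8.20 and 10.90. On db/db 110 Cpt1b was 8.10 at a muscle mean of 7.24. Acta1, the actin of skeletal muscle, was 12.55 and 12.23 on db/db 112 and 411 and 13.14 on db/+ 101. The mean of 8 brown adipocyte markers was also highest among db/db arrays on db/db 112 and 411, at 8.56 and 8.67. Among db/+ arrays it was highest on db/+ 104, at 8.21, where Cpt1b was 6.17. The muscle list had 0 of 12 members called in either direction, and the part of muscle or brown fat RNA in the Cpt1b difference was not tested.

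Cpt1a was higher by 0.39 ± 0.12 (SE, adjusted p = 0.0338), at 10.78 ± 0.25 in db/db nerve (SD, n = 6) and 10.39 ± 0.18 in db/+ nerve (SD, n = 7). This call did not hold without any of db/db 110, 111 or 411 or db/+ 104, 105 or 106 (adjusted p 0.0558 to 0.0738). Crat, which exchanges acetyl groups between carnitine and coenzyme A in both organelles, had levels of 10.48 to 11.28 (median 10.82) on the db/db arrays and 9.92 to 10.71 (median 10.31) on the db/+ arrays. The difference was 0.54 ± 0.16 (SE, adjusted p = 0.0291), with db/+ 404 and 407 inside the db/db range. The Crat call did not hold without any of db/db 409, 410 or 411 or db/+ 101, 104 or 106 (adjusted p 0.0537 to 0.0660). Cpt2, which returns the acyl group to coenzyme A inside the mitochondrion, differed by 0.30 (adjusted p = 0.0949). Mlycd, whose product removes the malonyl-CoA that inhibits carnitine palmitoyltransferase 1, differed by 0.43 (adjusted p = 0.0512), and Slc22a5, the plasma membrane carnitine transporter, by 0.29 (adjusted p = 0.228). Of these 7 genes 4 rose over the 13 arrays, where 13.4% of all genes did. Slc25a20 alone of the 7 rose over the 9 arrays, where 6.12% of all genes did, and all 7 differences were positive.

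The acyl-CoA dehydrogenases open each round of oxidation and differ in the chain length they take. Acadm, the medium-chain enzyme, had levels of 13.11 to 13.40 (median 13.20) on the db/db arrays and 12.53 to 12.97 (median 12.86) on the db/+ arrays. All 6 db/db arrays lay above all 7 db/+ arrays, and the difference was 0.42 ± 0.09 (SE, adjusted p = 0.00462), or 0.38 (adjusted p = 0.0396) against db/+ 105, 404 and 407 at 12.87, 12.92 and 12.75. Acadl, the long-chain enzyme, had levels of 12.71 to 12.93 (median 12.85) on the db/db arrays and 12.35 to 12.73 (median 12.53) on the db/+ arrays. The difference was 0.29 ± 0.08 (SE, adjusted p = 0.0171), and db/db 111 alone among the db/db arrays lay below the highest db/+ array. Acads, the short-chain enzyme, differed by 0.59 ± 0.22 (SE) and did not pass (adjusted p = 0.0696). Without db/+ 404, whose level of 11.32 was the highest of the db/+ arrays, the adjusted p of Acads was 0.0215, and without db/+ 407 it was 0.0468. Acadvl, the very-long-chain enzyme, and Acadsb, which takes short branched chains, differed by 0.10 (95% interval -0.14 to 0.34) and -0.07 (-0.34 to 0.19).

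The electrons of these dehydrogenases pass to the electron transfer flavoprotein, whose subunits are Etfa and Etfb, and from it through Etfdh to ubiquinone. Etfdh had levels of 11.88 to 12.31 (median 12.15) on the db/db arrays and 11.31 to 11.61 (median 11.52) on the db/+ arrays. The groups were separated by 0.26 at their nearest arrays, and the difference was 0.61 ± 0.09 (SE, adjusted p = 0.000484), a 1.53-fold higher level. It was 0.57 (adjusted p = 0.0157) against db/+ 105, 404 and 407, at 11.46, 11.56 and 11.62. Etfa had levels of 13.06 to 13.31 (median 13.21) on the db/db arrays and 12.52 to 13.01 (median 12.85) on the db/+ arrays. It did not overlap either, by a margin of 0.06, and was higher by 0.36 ± 0.09 (SE, adjusted p = 0.0139). Etfb, the other subunit of the same flavoprotein, differed by 0.18 over the 13 arrays (95% interval -0.09 to 0.46, adjusted p = 0.32) and by -0.03 over the 9.

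The remaining steps of the mitochondrial spiral are hydration, another oxidation and thiolysis. Hadha, the subunit of the trifunctional protein that carries the hydratase and long-chain hydroxyacyl dehydrogenase activities, had levels of 10.50 to 11.21 (median 10.94) on the db/db arrays and 10.02 to 10.70 (median 10.39) on the db/+ arrays. It was higher by 0.59 ± 0.13 (SE, adjusted p = 0.00734), with db/db 111 alone inside the db/+ range. Acaa2, the mitochondrial thiolase, had levels of 12.02 to 12.48 (median 12.34) on the db/db arrays and 11.36 to 12.28 (median 11.69) on the db/+ arrays. The difference was 0.55 ± 0.16 (SE, adjusted p = 0.0243), and the db/+ arrays were split, with 12.28 on db/+ 404 and 12.22 on db/+ 407 but 11.36 to 11.75 on the other 5. The call did not hold without db/db 410, db/db 411 or db/+ 106 (adjusted p 0.0502 to 0.0526). Echs1, the short-chain hydratase, and Hadh, the short-chain hydroxyacyl dehydrogenase, differed by -0.02 (95% interval -0.39 to 0.35) and 0.06 (-0.08 to 0.20). Over the 9 arrays Echs1 differed by -0.37 (adjusted p = 0.134) and was highest on db/+ 404, at 11.98.

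Unsaturated fatty acids need auxiliary isomerases and reductases. Decr1, the mitochondrial dienoyl-CoA reductase, had levels of 12.19 to 12.48 (median 12.34) on the db/db arrays and 11.69 to 12.21 (median 11.94) on the db/+ arrays. Levels in db/db nerve were higher by 0.41 ± 0.09 (SE, adjusted p = 0.00598), and db/+ 404 alone reached the db/db range. Its peroxisomal counterpart Decr2 differed by 0.09 (95% interval -0.20 to 0.38), and the isomerases Eci1 and Eci2 differed by -0.04 and 0.17 (adjusted p = 0.864 and 0.139). Decr1 was thus the only 1 of these 4 genes past the threshold over the 13 arrays, where 13.4% of all genes were higher, and 0 of the 4 passed over the 9.

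In the peroxisome, Hsd17b4 encodes the multifunctional enzyme that hydrates and dehydrogenates very-long-chain and branched substrates. It had levels of 12.02 to 12.23 (median 12.09) on the db/db arrays and 10.96 to 11.52 (median 11.35) on the db/+ arrays. The gap of 0.50 between the lowest db/db and the highest db/+ array exceeded the whole range of the db/db arrays, and the difference was 0.80 ± 0.09 (SE, adjusted p = 6.85e-05), a 1.74-fold higher level. This was the smallest p among the 37 genes. Against db/+ 105, 404 and 407, at 11.39, 11.52 and 11.35, the difference was 0.69 (adjusted p = 0.00198). Acaa1a, a peroxisomal thiolase, had levels of 10.33 to 10.80 (median 10.56) on the db/db arrays and 9.59 to 10.53 (median 9.84) on the db/+ arrays. The difference was 0.62 ± 0.15 (SE, adjusted p = 0.00874). Over the 9 arrays it was 0.32 and did not pass (adjusted p = 0.176), and db/+ 105, 404 and 407 had the highest db/+ levels, at 9.99, 10.53 and 10.22. Probe sets for Acaa1a and its near-identical copy Acaa1b may share signal.

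Acox3, an oxidase of branched chains, differed by 0.55 ± 0.20 (SE) and did not pass (adjusted p = 0.0567), with levels of 5.79 to 6.34 on the db/db arrays and 4.67 to 6.15 on the db/+ arrays. It passed without db/+ 105 (adjusted p = 0.0168) and without db/+ 407 (adjusted p = 0.0432). Ehhadh encodes the other bifunctional enzyme, which acts on straight chains, and differed by 0.06 (95% interval -0.34 to 0.47, adjusted p = 0.834). On db/+ 101 its level was 8.38, and without that array the difference was -0.07. Of the 4 genes of the peroxisomal spiral, Hsd17b4 and Acaa1a thus rose over the 13 arrays and Hsd17b4 alone over the 9, where 13.4% and 6.12% of all genes did.

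Abcd2 and Abcd3 encode transporters that bring fatty acyl-CoA into the peroxisome, and Pex11a promotes peroxisome division. Abcd2 had levels of 10.39 to 10.79 (median 10.69) on the db/db arrays and 9.07 to 10.10 (median 9.69) on the db/+ arrays. The groups did not overlap, and the difference of 1.03 ± 0.16 (SE) was a 2.04-fold higher level in db/db nerve (adjusted p = 0.0006). It was 0.81 (adjusted p = 0.00478) against db/+ 105, 404 and 407, at 9.76, 10.10 and 9.69. Pex11a was higher by 0.75 ± 0.24 (SE, adjusted p = 0.0375), at 11.00 ± 0.34 in db/db nerve (SD, n = 6) and 10.24 ± 0.55 in db/+ nerve (SD, n = 7). Its call did not hold without any of db/db 110, 112, 409, 410 or 411 or db/+ 103, 104 or 106 (adjusted p 0.0512 to 0.0808). Abcd3 differed by 0.08 (95% interval -0.12 to 0.27, adjusted p = 0.556) and had its highest level, 12.80, on db/+ 104.

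**Figure D2:**
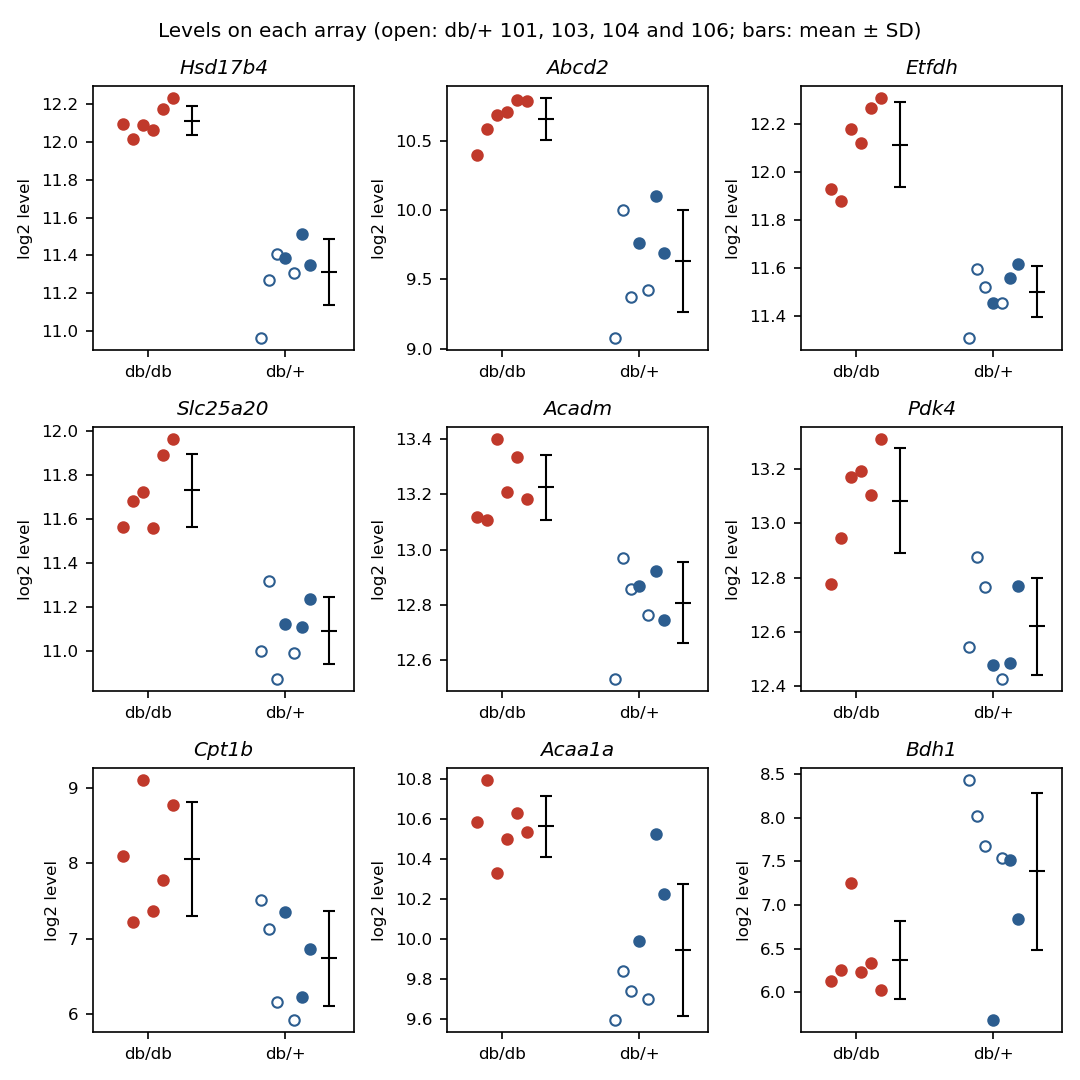
Log2 level of 9 of the genes on each array, with db/db arrays in red left of db/+ arrays in blue; open circles are db/+ 101, 103, 104 and 106 and bars give the mean ± SD of each genotype. Hsd17b4, Abcd2, Etfdh, Slc25a20 and Acadm do not overlap between genotypes, Cpt1b spreads widely in both, and the filled db/+ circles of Acaa1a lie above the open ones. Bdh1 overlaps between genotypes, with db/+ 105 the lowest of all arrays and db/+ 407 below db/db 112.

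Pdk4 encodes the kinase that shuts off pyruvate dehydrogenase when fat is burned. It had levels of 12.78 to 13.31 (median 13.14) on the db/db arrays and 12.43 to 12.88 (median 12.54) on the db/+ arrays. It was higher by 0.46 ± 0.11 (SE, adjusted p = 0.00864), with db/db 110 alone inside the db/+ range, and by 0.50 (adjusted p = 0.0398) against db/+ 105, 404 and 407, at 12.48, 12.49 and 12.77. Bdh1, the mitochondrial enzyme that converts hydroxybutyrate and acetoacetate into each other, had the greatest difference below 0 among the 37, -1.02 ± 0.37 (SE), and did not pass (adjusted p = 0.0622). Its levels were 6.02 to 7.25 on the db/db arrays and 5.68 to 8.43 on the db/+ arrays. The lowest of all was db/+ 105. It passed without db/+ 105 (difference -1.30, adjusted p = 0.00468) and without db/db 112 (difference -1.19, adjusted p = 0.0408), while over the 9 arrays its difference was -0.31 (adjusted p = 0.653). The neuronal marker mean was high on db/+ 101, 103, 104 and 106, where Bdh1 was 8.43, 8.02, 7.68 and 7.53. On db/+ 404, with a neuronal mean of 8.06, Bdh1 was 7.52, close to its level on db/+ 106. The part of neuronal RNA in this difference was not tested.

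Acyl-CoA thioesterases release free fatty acids from coenzyme A. Acot1 (cytosolic), Acot2 (mitochondrial) and Acot8 (peroxisomal) differed by -0.01, 0.23 and 0.24, and 0 of the 3 passed (adjusted p = 0.97, 0.0843 and 0.208). Acot1 and Acot2 are near-identical copies, so their probe sets may share signal. Of the nuclear receptors, Ppara, the main PPAR of liver, differed by 0.02 over the 13 arrays (95% interval -0.42 to 0.46) and by -0.32 over the 9 (-0.83 to 0.19), and Ppard, which is expressed in most tissues, by 0.32 (adjusted p = 0.203) and 0.01. Ppara and Ppard overlapped between genotypes. They lay at 5.57 to 6.55 and 6.55 to 7.36 on the db/db arrays. On the db/+ arrays they lay at 5.47 to 6.63 and 6.28 to 7.29. Another PPAR gene, Pparg, is counted among the regulators below. Its levels were 11.63 to 11.97 on the db/db arrays and 10.56 to 11.62 on the db/+ arrays, without overlap. Pparg was higher by 0.73 ± 0.16 (SE, adjusted p = 0.00605) and by 0.56 over the 9 arrays (adjusted p = 0.0398).

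Set against each other by organelle, 11 of the 21 mitochondrial genes (52.4%) and 4 of the 9 peroxisomal genes (44.4%) rose, where 13.4% of all genes did. The median difference was 0.36 for the mitochondrial genes, with a range of -1.02 to 1.32, and 0.55 for the peroxisomal genes, with a range of 0.06 to 1.03. All 9 peroxisomal differences and 17 of the 21 mitochondrial ones were positive. Over the 9 arrays, 4 of 21 and 2 of 9 rose, where 6.12% of all genes did, and the medians were 0.23 and 0.20. The mitochondrial minus the peroxisomal median was thus -0.19 over the 13 arrays and 0.03 over the 9. Over the 13 arrays it was 0.05 when Pdk4, Bdh1 and Acot2 were left out of the mitochondrial and Pex11a, Abcd2 and Acot8 out of the peroxisomal genes, a set that still held the transporter Abcd3. With Abcd3 left out as well it was -0.17, and with only the enzymes of the spiral, 9 mitochondrial and 4 peroxisomal, it was -0.30. The last 2 sets were chosen after seeing the data. The medians carry no test, and their order turned over the 9 arrays.

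**Figure D3:**
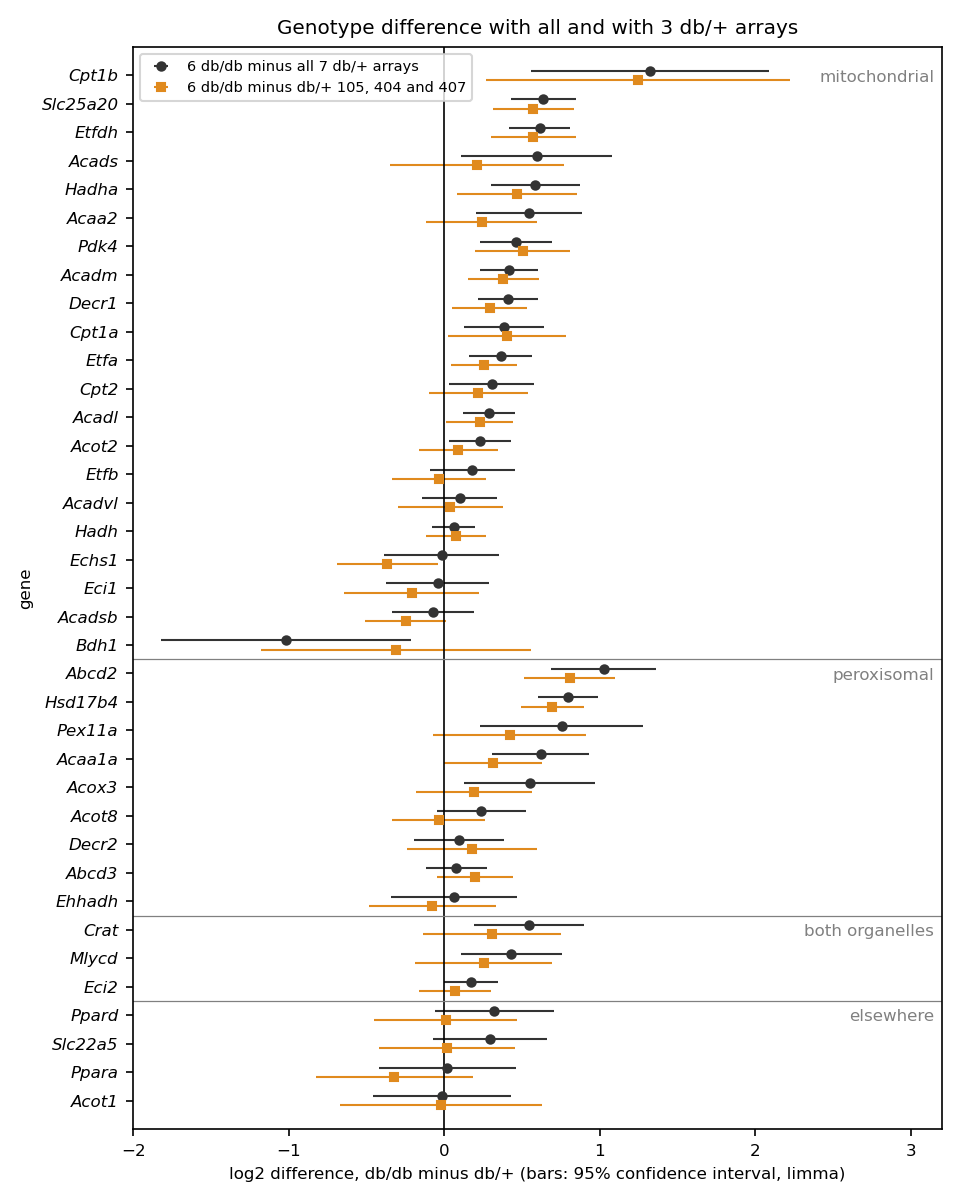
Fitted log2 difference, db/db minus db/+, with its 95% confidence interval (limma) for each of the 37 genes by organelle; black circles set 6 db/db arrays against all 7 db/+ arrays and orange squares against db/+ 105, 404 and 407. Of the 16 genes that rose, all have positive values in both sets and 14 have the orange square nearer 0; Pdk4 and Cpt1a do not.

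Array by array, each gene's deviation from its mean over the 13 arrays was averaged within an organelle. The peroxisomal mean deviation lay between 0.19 and 0.35 on the db/db arrays and between -0.59 and 0.01 on the db/+ arrays, without overlap. The mitochondrial mean deviation lay between -0.03 and 0.32 on the db/db arrays and between -0.28 and 0.06 on the db/+ arrays, and overlapped. On db/db 110 and 111 the mitochondrial mean was 0.03 and -0.03, below the 0.06 of db/+ 404, while the peroxisomal mean was 0.20 and 0.19. In the db/+ group, db/+ 404 had the highest level in 21 of the 37 genes and db/+ 101 the lowest in 21. In the db/db group, db/db 111 had the lowest level in 18 of the 37 genes.

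Of 12 adipocyte markers 10 were measured and 6 were higher in db/db, where 13.4% of all genes were, and 3 over the 9 arrays, where 6.12% were. Their mean level was 12.64 to 12.85 on the db/db arrays and 11.49 to 12.58 on the db/+ arrays, without overlap. It was lowest on db/+ 101 and highest among db/+ arrays on db/+ 404, the same arrays that were lowest and highest among db/+ for the mean deviations of both the mitochondrial and the peroxisomal genes. Adipoq, which encodes the fat cell hormone adiponectin, was between 13.66 and 13.81 on the db/db arrays and between 13.25 and 13.76 on the db/+ arrays and did not pass (difference 0.25, adjusted p = 0.0581). Of 8 brown adipocyte markers 4 were higher over the 13 arrays and 2 over the 9, where 13.4% and 6.12% of all genes were. Their mean level overlapped, at 7.39 to 8.67 on the db/db arrays and 6.89 to 8.21 on the db/+ arrays, with db/+ 104 above db/db 110, 111 and 409. Of these markers Ucp1, which uncouples respiration in brown fat, lay between 8.77 and 11.55 on the db/db arrays and between 4.57 and 6.22 on the db/+ arrays. The mean of 9 macrophage markers was 11.37 to 12.27 on the db/db arrays and 11.06 to 12.52 on the db/+ arrays, with 2 higher over the 13 arrays and 0 over the 9. The part of fat cells in the differences of the oxidation genes was not tested.

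**Figure D4:**
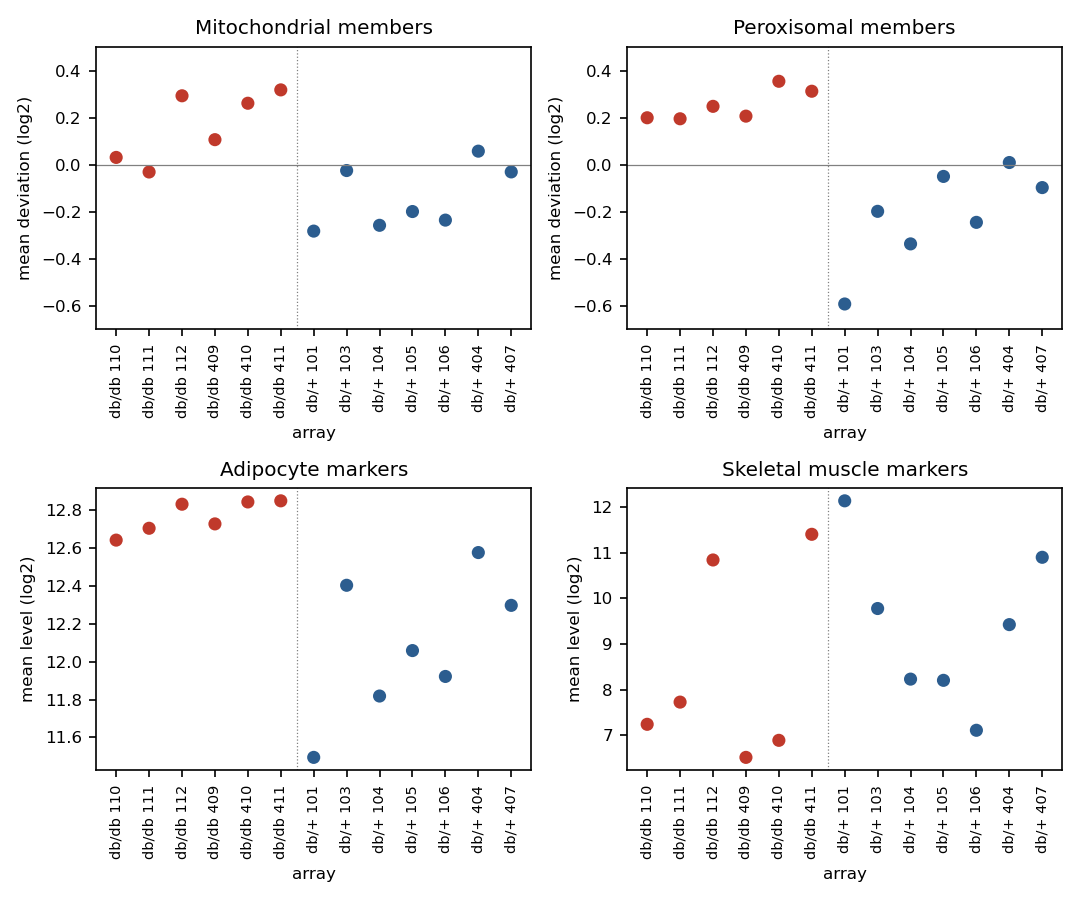
Per array, the mean deviation (log2) of the mitochondrial and of the peroxisomal genes from their means over the 13 arrays (top), and the mean log2 level of the adipocyte and skeletal muscle markers (bottom); db/db arrays are red and left of the dotted line, db/+ arrays blue. The peroxisomal and adipocyte panels separate the genotypes, the mitochondrial panel does not, and the muscle mean is high on db/db 112 and 411 and on db/+ 101 and 407.

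In 6 of the 37 genes every db/db array lay above every db/+ array, where 6.17% of all genes did, and in 0 did the reverse hold, as it did in 3.51% of all genes. These were Slc25a20, Acadm, Etfa, Etfdh, Hsd17b4 and Abcd2. Over the 9 arrays the count was 7, with Pdk4 added, where 8.98% of all genes did.

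Sample numbers fell into a lower series (101 to 112) and a higher series (404 to 411), whose meaning the labels do not give. With the number series as a term in the fit, 18 of the 37 genes rose and 0 fell, where 14.5% of all genes rose and 12.9% fell, and the 16 genes were all among the 18. Within arrays 101 to 112 (3 db/db and 5 db/+), 9 rose, where 9.85% of all genes did, and within arrays 404 to 411 (3 db/db and 2 db/+), 3 rose, where 4.93% did. The 3 were Hsd17b4, Etfdh and Abcd2, and all 3 rose in both series. All 16 genes had positive differences in each series. Hsd17b4 was higher by 0.80 and 0.72 in the lower and the higher series (adjusted p = 0.00764 and 0.0298), Etfdh by 0.53 and 0.65 (0.0185 and 0.0338), and Abcd2 by 1.03 and 0.86 (0.0176 and 0.0352). The difference of the genotype effect between the series passed in 0 of the 37 genes and in 0 of all genes by limma with Benjamini-Hochberg adjustment, while 2360 of all genes had an unadjusted p under 0.05. Among the 37, Acaa1a, Acaa2 and Abcd3 had such an unadjusted p, with effects of 0.80 and 0.18, 0.67 and 0.13, and -0.01 and 0.31 in the lower and the higher series (adjusted p = 0.27, 0.277 and 0.316). On simulated data this interaction test recovered 1.49%, 19.4% and 68.2% of genes whose effect differed between the series by 0.5, 1 and 2. It would therefore miss most differences of the size seen here, and its count of 0 does not show that the series agree.

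Promoter windows of the genes were searched for exact copies of the letters bound by PPAR. It pairs with the retinoid X receptor on direct repeats of AGGTCA with 1 base between them. RefSeq windows of 250 bases before to 50 after the gene start (GRCm38.p6) matched 31 of the 37 genes, with 33 windows, and 10 of the 16 that rose. The full repeat (AGGTCA, any base, AGGTCA) was in 0 of the 33 windows on either strand, and in 13 of 32851 windows of all genes (0.0396%). At so low a share, 0 was the likely count for any 33 windows. Sites that differ by a base or lie outside the windows were not seen, and Hsd17b4 and Abcd2 had no window. The search therefore cannot tell whether the genes that rose share PPAR sites. The 6-base AGGTCA alone was in 4 of the 33 windows (12.1%) and in 16.3% of all windows, and of the windows of genes that rose 2 of 10 held it. These were Acadm, at bases 2 to 7, and Cpt1a, at bases 157 to 162, both on the opposite strand, where the window reads TGACCT. Their windows are shown with those 6 bases in capitals, together with that of Etfdh, which rose in both number series and has no such letters in this window. Each is printed 5′ to 3′ on the strand of the gene. The Acadm window is chr3:153944594-153944893 on the minus strand, the Cpt1a window chr19:3323051-3323350 on the plus strand and the Etfdh window chr3:79628718-79629017 on the minus strand.
Acadm: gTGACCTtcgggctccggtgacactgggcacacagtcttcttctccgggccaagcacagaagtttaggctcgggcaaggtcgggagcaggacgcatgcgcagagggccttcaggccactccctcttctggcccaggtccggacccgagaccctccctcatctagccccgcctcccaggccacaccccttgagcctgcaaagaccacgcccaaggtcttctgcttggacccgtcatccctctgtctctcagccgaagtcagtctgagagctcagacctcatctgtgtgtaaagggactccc
Cpt1a: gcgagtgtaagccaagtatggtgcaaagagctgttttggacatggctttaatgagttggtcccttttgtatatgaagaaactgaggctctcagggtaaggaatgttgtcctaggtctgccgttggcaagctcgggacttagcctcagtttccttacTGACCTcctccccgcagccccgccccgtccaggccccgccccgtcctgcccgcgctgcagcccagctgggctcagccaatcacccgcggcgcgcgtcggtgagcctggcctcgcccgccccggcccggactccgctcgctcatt
Etfdh: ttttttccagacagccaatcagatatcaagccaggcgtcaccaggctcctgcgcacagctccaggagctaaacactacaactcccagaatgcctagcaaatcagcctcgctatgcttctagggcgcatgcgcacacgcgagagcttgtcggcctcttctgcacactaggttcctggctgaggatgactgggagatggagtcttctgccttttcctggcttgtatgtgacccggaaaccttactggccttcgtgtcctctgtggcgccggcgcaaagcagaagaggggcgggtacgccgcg

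Beyond the 37 genes, 96 gene symbols in 5 lists of the same pathways were examined, of which 81 were measured, with Ech1 and Crot in 2 lists each. Of the 81, 24 were higher and 4 lower in db/db nerve over the 13 arrays, where 13.4% and 11.7% of all genes were, and 12 were higher and 3 lower over the 9, where 6.12% and 6.78% of all genes were. The list of other peroxisomal genes held 13 of the 24, from 29 measured, with 0 lower and a median difference of 0.29, and 5 of its 29 rose over the 9 arrays. Among the peroxins, which build peroxisomes, Pex19 had levels of 10.09 to 10.39 (median 10.26) on the db/db arrays and 9.21 to 9.66 (median 9.53) on the db/+ arrays. The groups did not overlap, and the difference was 0.75 ± 0.09 (SE, adjusted p = 0.000137), or 0.68 (adjusted p = 0.00429) over the 9 arrays. Pex19 is the receptor that delivers membrane proteins to peroxisomes. Pex13, part of the import machinery for matrix enzymes, was higher by 0.62 ± 0.09 (SE, adjusted p = 0.00043) and by 0.59 over the 9 arrays (adjusted p = 0.00957). Pex16, which acts with Pex19 in membrane protein delivery, was higher by 1.09 ± 0.21 (SE, adjusted p = 0.00253) but not over the 9 arrays (0.74, adjusted p = 0.0646).

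**Figure D5:**
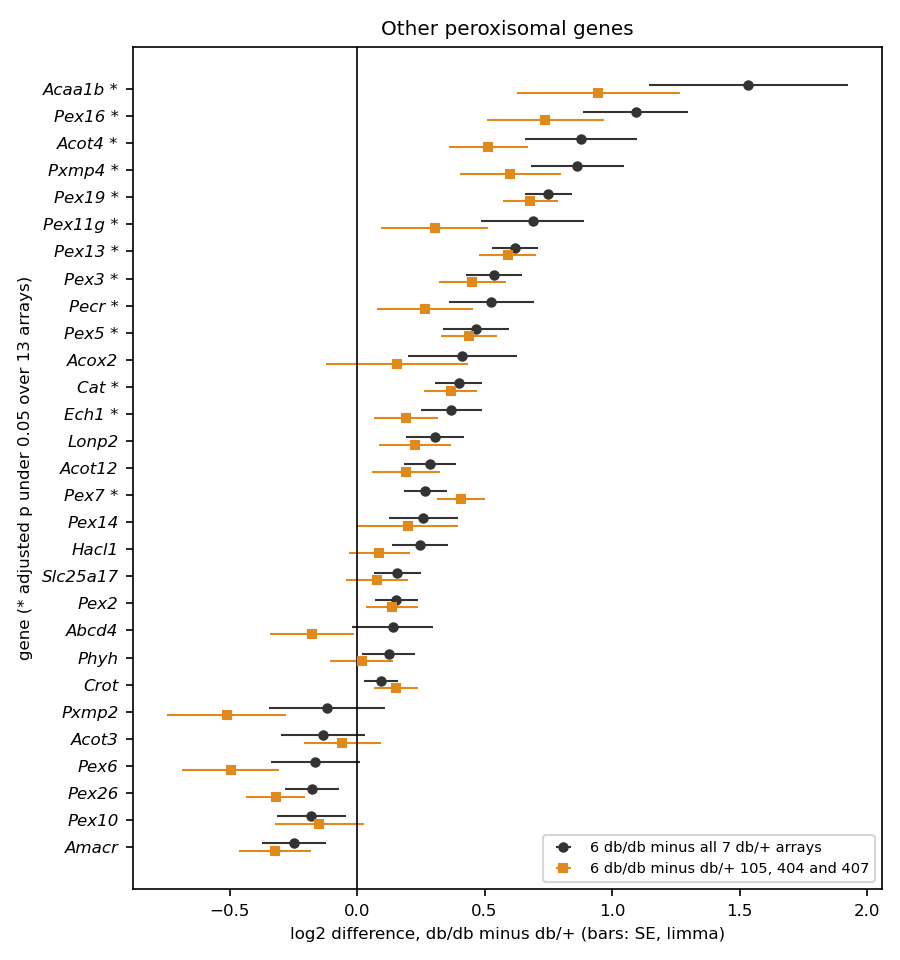
Fitted log2 difference, db/db minus db/+, with its SE (limma) for the 29 measured genes of the list of other peroxisomal genes; black circles set 6 db/db arrays against all 7 db/+ arrays and orange squares against db/+ 105, 404 and 407, and an asterisk marks the 13 genes with an adjusted p under 0.05 over the 13 arrays. The asterisks are all on the positive side, and 23 of the 29 black circles lie above 0.

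Of 20 genes listed as other mitochondrial acyl-CoA genes 5 rose and 0 fell, where 13.4% and 11.7% of all genes did. Over the 9 arrays 1 rose and 1 fell, where 6.12% and 6.78% of all genes did. Ech1 was also in the peroxisomal list, and the products of Acad11, Nudt7 and Nudt19 are peroxisomal. Acad11, Ech1 and Nudt7 were among the 5 that rose, so these counts do not describe mitochondrial genes alone. Acad9, an acyl-CoA dehydrogenase that also assembles respiratory complex I, was higher by 0.49 ± 0.08 (SE, adjusted p = 0.00079) and by 0.43 over the 9 arrays (adjusted p = 0.0285). Acot9, a mitochondrial thioesterase, was higher by 0.46 ± 0.09 (SE, adjusted p = 0.00287) but did not pass over the 9 arrays (0.30, adjusted p = 0.0761). Of 19 regulators 5 rose and 1 fell, where 13.4% and 11.7% of all genes did. Over the 9 arrays 4 rose and 0 fell, where 6.12% and 6.78% of all genes did. Lpin1, a phosphatidate phosphatase that also acts as a coactivator with PPAR alpha in liver, had levels of 10.71 to 10.93 (median 10.81) on the db/db arrays and 10.03 to 10.40 (median 10.12) on the db/+ arrays. The groups did not overlap, and the difference was 0.65 ± 0.08 (SE, adjusted p = 0.000111) over the 13 arrays and 0.71 (adjusted p = 0.00147) over the 9. Angptl4, a secreted inhibitor of lipoprotein lipase and a known PPAR target, was higher by 1.33 ± 0.23 (SE, adjusted p = 0.0016) and by 0.97 over the 9 arrays (adjusted p = 0.00988), with 13.14 to 13.36 on the db/db arrays and 11.00 to 12.64 on the db/+ arrays. Sirt3, the main deacetylase of mitochondrial proteins, fell, with a difference of -0.33 ± 0.09 (SE, adjusted p = 0.0245) and did not pass over the 9 arrays (-0.28, adjusted p = 0.195).

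Of 12 measured genes of activation and carnitine transfer 1 rose and 2 fell, with a median of -0.09, where 13.4% of all genes rose and 11.7% fell. The 9 arrays gave 1 that rose and 1 that fell, where 6.12% and 6.78% of all genes did. The fatty acid transporter Slc27a1 rose by 0.72 ± 0.13 (SE, adjusted p = 0.00226), and by 0.88 over the 9 arrays (adjusted p = 0.00324), with 10.82 to 11.28 on the db/db arrays and 9.99 to 10.75 on the db/+ arrays. Cpt1c, the carnitine palmitoyltransferase 1 form of neurons, had levels of 9.38 to 9.67 (median 9.47) on the db/db arrays and 9.99 to 10.52 (median 10.21) on the db/+ arrays. All db/db arrays lay below all db/+ arrays, and it differed by -0.71 ± 0.10 (SE, adjusted p = 0.000299) over the 13 arrays and by -0.76 (adjusted p = 0.00514) over the 9, opposite in sign to Cpt1a and Cpt1b. Acss1, the mitochondrial acetyl-CoA synthetase, differed by -0.32 ± 0.11 (SE, adjusted p = 0.0453) and did not pass over the 9 arrays (-0.27, adjusted p = 0.284). Of 3 ketone genes 1 rose and 1 fell, over the 13 arrays and over the 9. Of all genes 13.4% rose and 11.7% fell over the 13 arrays, and 6.12% and 6.78% did over the 9. The gene that rose was Oxct1, by 0.43 ± 0.08 (SE, adjusted p = 0.00297) and by 0.32 over the 9 arrays (adjusted p = 0.0442). Its levels were 11.64 to 11.77 on the db/db arrays and 11.02 to 11.49 on the db/+ arrays. The gene that fell was Bdh2, a cytosolic hydroxybutyrate dehydrogenase, with a difference of -0.94 ± 0.23 (SE, adjusted p = 0.0121) over the 13 arrays and of -1.43 (adjusted p = 0.00357) over the 9, with 9.42 to 10.36 on the db/db arrays and 10.26 to 11.40 on the db/+ arrays.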

How the data were processed

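Per the labels' protocols, total RNA of sciatic nerve was amplified and given a biotin label, and each sample has 1 array. Per the submitters' processing notes, the authors made log2 expression levels by RMA; the deposited values were taken unchanged. RMA removes differences in total signal between arrays and compresses the differences of dim genes. Which RMA version, platform and probe sets were used is not given in the sources used here. No detection calls came with the values, so low levels (down to 1.75) could not be set apart from background.

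Of 15479 probe sets, 42 controls were left out, and 14801 of the other 15437 had 1 gene symbol. Samples were grouped by the genotype in the labels. The test of each gene was limma's two-sided moderated test (lmFit, eBayes; limma 3.58.1, R 4.3.3), and p-values were Benjamini-Hochberg adjusted over 15437 probe sets, with a threshold of 0.05. On data simulated for db/db against db/+ over all 13 arrays and 15437 genes, this test recovered 34.3%, 74.6% and 97% of genes whose log2 level was changed by 0.5, 1 and 2; 5 of its 142 calls were false. The simulation changed 67, 67 and 66 genes by these sizes, with noise drawn independently for each gene and array. On the measured data the test called 2068 genes higher and 1799 lower, and the db/+ arrays differed among themselves. Recovery and false calls on the measured data may therefore differ from these figures. The fit over 9 arrays used the same steps and was not simulated. The fatty acid oxidation genes, their organelles, the other lists, the markers and the set of 9 arrays were chosen with earlier results of these data known. Lists are described by counts and medians, with no test of their own.

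All measured genes of the list could be named with their difference. Array values were given for the 10 with the smallest p past the threshold and for up to 8 whose side of the threshold or direction differed over the 9 arrays. Array levels given for other genes of the list (Bdh1, Acox3, Acads, Ehhadh, Echs1, Abcd3, Ppara and Ppard) were chosen after their values were seen. Of the other pathway lists up to 8 genes per direction were given with values, and Pparg and Oxct1 were added after their values were seen. Of the marker lists Lepr, Adipoq, Ucp1 and Acta1 were named. Promoter windows came from a RefSeq table. The planned comparison of peroxisomal targeting signals was not run, because no protein sequences were used here. Other settings were moderation with an intensity trend, also made robust, median centring of arrays, quantile normalization applied again, leaving out the lowest 25% of genes, weights for arrays, a term for the number series, each series by itself, omission of 1 array at a time, an exact permutation test over 1716 splits, and other organelle assignments. Counts and figures were made in Python 3.11.15 (pandas 2.3.3, numpy 2.4.6, matplotlib 3.10.9).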

Additional observations from a re-analysis of the deposited data

Results flagged for a closer look

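Bdh1 on db/db 112 stood apart from the other db/db arrays. Its level there was 7.25, while the other 5 db/db arrays lay between 6.02 and 6.33, so that the gap to the nearest array was 0.746 of the whole range. This was the only such array among 74 combinations of a gene and a genotype, and chance alone flags about 5% of such groups. Without db/db 112, Bdh1 differed by -1.19 (limma with Benjamini-Hochberg adjustment, adjusted p = 0.0408), against -1.02 (adjusted p = 0.0622) with it; over all settings its adjusted p ran from 0.00468 to 0.682.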

How the results depend on the processing

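The 16 higher genes became 26 with array weights (1 lower; peroxisomal median 0.72, mitochondrial minus peroxisomal median -0.38), 9 in arrays 101 to 112 (6 mitochondrial), 3 in arrays 404 to 411 (1 mitochondrial, 2 peroxisomal; medians 0.21 and 0.31), 6 with db/+ 105, 404 and 407 as the only db/+ arrays (4 mitochondrial, 2 peroxisomal; peroxisomal median 0.20) and 9 with the number series as a term there (6 and 2; 0.19). The difference of the medians changed sign over those 9 arrays (0.030, and 0.086 with the number series) and without Pdk4, Bdh1, Acot2, Pex11a, Abcd2 and Acot8 (0.054; 2 peroxisomal genes higher, median 0.32). In sets chosen after seeing the data it did not: it was -0.17 with Abcd3 left out too (2 peroxisomal genes higher) and -0.30 with only enzymes of the spiral (4 mitochondrial and 2 peroxisomal genes higher). Other pathway genes were 12 higher over the 9 arrays, 6 higher in arrays 404 to 411 and 7 lower with the number series as a term. With array weights they too went up, from 24 to 36 higher. The share of all genes is not given here for array weights, for the 9 arrays with the number series, or with 1 array left out. Counts in those settings therefore cannot be set against all genes. Genes without overlap numbered 17 in arrays 101 to 112 and 19 in arrays 404 to 411. Both series hold fewer arrays, and smaller groups separate more easily by chance. The share of all genes without overlap is not given here for either series. These counts therefore cannot be set against all genes or read as stronger separation than over all arrays. Leaving out each array gave 12 to 20 genes higher, 0 to 1 lower (Bdh1, without db/db 112 or db/+ 105), 9 to 12 mitochondrial and 3 to 6 peroxisomal, medians of 0.31 to 0.39 and 0.41 to 0.63 with a difference of -0.29 to -0.08, 18 to 30 and 3 to 6 other pathway genes, and 6 to 9 genes without overlap. Of the 16 genes, 12 passed in every such fit, and Hsd17b4, Etfdh and Abcd2 passed in all 25 settings (adjusted p at most 0.0298, 0.0338 and 0.0352). Acaa2 did not pass the exact permutation test (adjusted p = 0.0549; 0.000761 to 0.543 over its settings). The genes whose direction changed had not passed. Echs1 was 0.032 with median centring, 0.13 with array weights and 0.014 in arrays 101 to 112, and -0.12 to 0.071 with 1 array left out. Eci1 was 0.0062 with centring, 0.083 with weights and -0.10 to 0.046 with 1 array left out. Etfb was -0.059 in arrays 404 to 411 and -0.033 over the 9 arrays; Ehhadh was -0.19, -0.076 and, with the number series, -0.047, and -0.0725 to 0.15 with 1 array left out; Acot8 was -0.049, -0.036 and -0.0032. Abcd3 was -0.0040 with weights and -0.012 in arrays 101 to 112. Acot1 was 0.058 after quantile normalization, 0.035 with centring, 0.0047 with the number series, 0.30 in arrays 101 to 112 and -0.10 to 0.12 with 1 array left out. Ppara was -0.092 with the number series, -0.078 and -0.11 in the lower and higher series, -0.32 over the 9 arrays, -0.26 with the number series there and -0.082 to 0.12 with 1 array left out. The cause of these changes was not tested. Both moderation settings changed 0 of the 37 genes, and scaling moved the median of all genes to at most 0.07. No paired analysis was possible because the genotypes share no sample numbers. Depth has no meaning for arrays, and signal over background was not recorded in the values.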
